A study of Rattus norvegicus with 24 samples.

Results

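Collagens and other extracellular matrix genes of the rat heart were described by 77 genes, out of 10411 genes that the array measured with a probe set of 1 symbol. The 77 were chosen by name: collagen chains, laminins, fibulins, fibrillins, thrombospondins, lysyl oxidases, the ADAM and ADAMTS proteases, and Fn1, Sparc, Postn, Dcn, Lum, Bgn, Fmod, Vcan, Spp1, Tnc, Eln, Mgp, Ccn1, and Ccn2, each represented by its brightest probe set. The arrays compared male Wistar Kyoto rats, bought at 12 to 14 weeks of age, that received weekly intratracheal instillations in saline. Each of 6 groups had 4 rats and each rat had 1 array of left ventricle plus septum, taken 48 hr after the last instillation. Control rats received saline alone. The MSH group received Mount St. Helens ash, particles without water-soluble zinc. The PM-HD group received a suspension of oil combustion particles that held 14.5 μg of zinc and 3.0 μg of nickel in water-soluble form per mg, and the PM-LD group received the lower particle dose, labelled 7.25 and 1.5 μg per mg. The PM-L group received the filtered leachate, with the soluble metals and no solids, and the last group received zinc sulfate. The sample labels give 14.5 μg/ml for it and the treatment protocol in the labels gives 33.4 μg of zinc per ml, so the labels do not settle its dose. The methods of the study gave rats of the 8-week schedule a higher weekly concentration of every component than rats of a longer schedule. For zinc they tie 33.4 μg per kg to that longer schedule, so neither label value is the 8-week dose of those methods. The arrays of control, MSH, PM-HD, and zinc sulfate rats followed 8 weekly instillations, and the sources used here do not give that number for PM-LD and PM-L.

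The extracellular matrix is the protein scaffold between heart cells. Fibroblasts secrete the fibrillar collagens, mainly types I and III, which are processed outside the cell, bound by small proteoglycans such as decorin, and cross-linked by lysyl oxidase into fibers that set the stiffness of the ventricle. Collagen IV and laminins form the basement membrane around cardiomyocytes and capillaries, and fibrillins carry elastin and store latent transforming growth factor beta (TGF-β). Matricellular proteins such as osteopontin (Spp1), tenascin-C (Tnc), and connective tissue growth factor (Ccn2) signal to cells and typically rise when the heart is injured or remodels.

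The DNA before the starts of a pair of genes, and of Ccn2, is shown for genes named in the results below. No result below depends on these sequences. Col4a1 and Col4a2, the chains of the common collagen IV of basement membranes, lie head to head on chromosome 16, and 76 bases separate their annotated starts (RefSeq, build GRCr8, chr16:84885521-84885596, strand of Col4a1). Capitals mark GGGCGG, the GC box, here read on the other strand.
between Col4a2 and Col4a1: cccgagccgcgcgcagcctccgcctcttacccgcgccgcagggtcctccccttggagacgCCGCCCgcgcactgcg
That stretch holds 1 GC box and 78.9% G and C. Of all 33469 rat promoters, 18.1% hold a GC box on either strand in the 76 bases before the start. Among the 55 matrix genes that have a promoter in the table, 23 (41.8%) do. Ccn2, the only 1 of the 8 matrix genes called between zinc sulfate and MSH that passed under every alternative that was run, lies on the minus strand of chromosome 1, and the 250 bases before its start are chr1:22624615-22624864. Capitals mark TATAAA, the TATA box, and GGAATG, the core that TEAD factors bind.
Ccn2: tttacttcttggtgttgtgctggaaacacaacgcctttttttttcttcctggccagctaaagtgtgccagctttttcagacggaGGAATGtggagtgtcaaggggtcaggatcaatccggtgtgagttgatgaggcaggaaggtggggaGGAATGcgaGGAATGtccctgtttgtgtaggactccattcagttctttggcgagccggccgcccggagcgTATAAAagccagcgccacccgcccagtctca
GGAATG occurs 3 times and TATAAA 1 time in this window. Of all 33469 promoters, 12.1% hold GGAATG and 12.9% hold TATAAA within 250 bases on either strand, against 9 and 10 of the 55 matrix genes that have a promoter in the table. A match describes the letters and not a bound site.

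Of the 77 matrix genes, 45 had a mean level above the median of all probe sets, a signal of 230.8 (Microarray Suite 5.0 units), and are called bright here. The bright ones included the chains of the common fibrillar collagens (Col1a1, Col1a2, Col3a1, Col5a1, and Col5a2), collagen IV (Col4a1, Col4a2, and Col4a5), all chains of collagen VI that were measured (Col6a1, Col6a2, and Col6a3), 6 of 8 laminins, and all 4 ADAMTS genes. Cartilage collagens (Col2a1, Col9a1, Col9a2, Col10a1, Col11a1, and Col11a2), 9 of 14 ADAM genes, Postn, Spp1, Tnc, and Ccn1 were dim. Cardiomyocyte markers were bright on every array, with Myh6, the main myosin of the rat ventricle, between 21869 and 47382. Transcripts of the atrium varied more: Myl7, the atrial myosin light chain, ranged from 103 to 12169. On 6 of 24 arrays 4 atrial transcripts averaged over 11 on the log2 scale. These were saline replicate 1, MSH replicate 1, PM-LD replicate 2, PM-L replicates 2 and 4, and zinc sulfate replicate 2. The signal ratio of the 3′ to the 5′ probe set of Gapdh, which rises when RNA is degraded or copied short, ranged from 1.113 to 5.624 and exceeded 3 on 9 arrays: saline replicate 4, MSH replicates 1 and 4, PM-HD replicates 3 and 4, PM-LD replicate 3, PM-L replicates 3 and 4, and zinc sulfate replicate 3. In RNA of whole tissue, fewer cells of a type and less RNA per cell cannot be told apart.

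No matrix gene passed an adjusted p under 0.05 in any of the 6 comparisons, or in the F-test over the 6 groups (limma, Benjamini-Hochberg over 15866 probe sets). The counts below therefore use the thresholds of the study, an unadjusted p under 0.05 together with a fold below 0.75 or above the matching upper limit, and stand beside the share of all probe sets that passed the same thresholds. By the unadjusted p alone, the matrix genes numbered 2 with MSH (3.37% of all probe sets), 2 with PM-HD (3.45%), 1 with PM-LD (4.49%), 1 with PM-L (4.65%), 5 with zinc sulfate (4.34%), and 8 between zinc sulfate and MSH (6.37%). Over all probe sets, 0.0126% passed the adjusted p with PM-L and none in the other comparisons. Log2 fold changes are given with their standard error (SE). The counts use only the brightest probe set of each gene. Among the dimmer ones, Adam10 passed higher with PM-LD (0.65, SE 0.20), PM-L (0.57, SE 0.20), and zinc sulfate (0.42, SE 0.20). Col2a1 passed lower with PM-HD (-1.145, SE 0.43) and PM-LD (-1.03, SE 0.43) and higher between zinc sulfate and MSH (1.06, SE 0.43). With PM-L, Adam19 (0.81, SE 0.39) and Lamc1 (0.47, SE 0.18) passed higher. In those comparisons the brightest probe sets of these genes did not pass.

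MSH-exposed hearts had 1 matrix gene past the thresholds, Tnc, against 3.18% of all probe sets in either direction, 1.70% higher and 1.48% lower. Tenascin-C is an adhesion-modulating glycoprotein of embryonic and injured myocardium. Its signals were 31.2, 57.3, 69.9, and 60.6 with MSH and 10.9, 12.4, 26.1, and 21.5 with saline. Every MSH rat lay above every saline rat in signal, but the values were dim and overlapped after normalization. Its log2 fold change was 0.98 (SE 0.42, adjusted p = 1.00), and the exact permutation test gave p = 0.0571, two-sided. It missed the thresholds without saline replicate 1 (0.93), 2 (0.93), or 4 (0.97) and without MSH replicate 2 (0.94), 3 (0.85), or 4 (0.92). Tnc was higher on average in the other groups as well, by 0.70 with PM-HD, 0.58 with PM-LD, 0.66 with PM-L, and 0.37 with zinc sulfate, none past the thresholds. Of the 77 genes, 54 lay above saline with MSH and the median was 0.10, where the median of all probe sets was 0.00; 9 of 10 fibrillar collagens were above saline with a median of 0.26, and none of them passed.

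**Figure D1:**
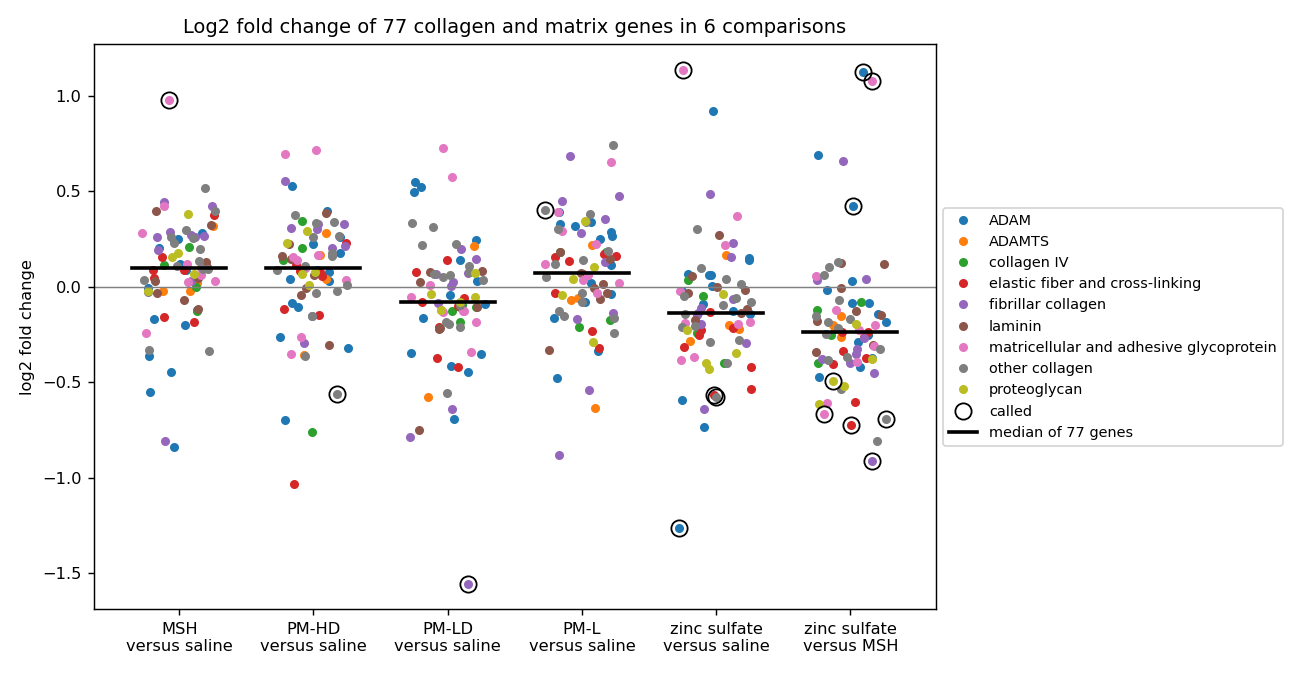
Log2 fold change (y) of each of the 77 matrix genes (points, colored by role) in the 6 comparisons (x), with the median of the 77 as a bar and genes past the thresholds of the study circled. Between 1 and 8 genes were circled per comparison, and the medians ran from 0.10 for MSH and PM-HD to -0.14 for zinc sulfate versus saline and -0.24 for zinc sulfate versus MSH.

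PM-HD exposure was also followed by 1 call, against 3.22% of all probe sets, 1.74% higher and 1.48% lower. Col8a2, a chain of the short network-forming collagen VIII of vessel walls, was lower. Its signals were 72.8, 45.5, 47.7, and 118.2 with PM-HD and 101.9, 109.5, 90.3, and 131.2 with saline. Thus 1 PM-HD rat lay inside the saline range and the other 3 below it. On the log2 scale the fold change was -0.56 (SE 0.22, adjusted p = 0.999; exact permutation p = 0.0857, two-sided). Without PM-HD replicate 2 or 3 it was -0.47 and -0.41, and with a pseudocount of 64 it was -0.37, each outside the thresholds. Ccn2 had signals of 1298, 1178, 1686, and 1934 against 2129, 1884, 2101, and 1629.9 in saline hearts. Its log2 fold change of -0.35 (SE 0.18) missed the thresholds. Of the 10 fibrillar collagens 8 lay above saline with a median of 0.26, and none of them passed. Col1a1 had 2395 ± 499 (SD, n = 4) with PM-HD and 1938 ± 228 with saline, a log2 fold change of 0.31 (SE 0.26) that did not pass.

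PM-LD exposure gave 1 call by the brightest probe sets, Col11a2, against 4.11% of all probe sets, 2.24% higher and 1.87% lower. Col11a2 encodes a chain of collagen XI, a cartilage collagen. The signals were 11.3, 21.5, 23, and 12.9 with PM-LD and 107.1, 102.7, 22.5, and 148.2 with saline. All 4 PM-LD rats were near the lower end of the array's range, and saline replicate 3 was as low as they were. The log2 fold change was -1.56 (SE 0.50, adjusted p = 0.999; exact permutation p = 0.0571, two-sided), and it passed the thresholds without any 1 of the 8 arrays. The chains of collagens I and III did not pass, with log2 fold changes of 0.15 for Col1a1, 0.03 for Col1a2, and 0.07 for Col3a1 (SE 0.26 to 0.28).

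PM-L, the leachate without solids, gave 1 call by the brightest probe sets, Col18a1, against 4.25% of all probe sets, 2.43% higher and 1.82% lower. Collagen XVIII is a basement membrane proteoglycan whose end fragment is endostatin. Its signals were 322.9, 319.3, 566.5, and 494.5 with PM-L and 273.2, 246.3, 332.5, and 389.4 with saline. The groups overlapped, since 2 PM-L rats lay within the saline range. It had a log2 fold change of 0.40 (SE 0.18, adjusted p = 0.999; exact permutation p = 0.114, two-sided), and it was 0.29 without PM-L replicate 3, 0.34 without PM-L replicate 4, 0.37 without saline replicate 1, and 0.33 without saline replicate 2, each outside the thresholds. A second probe set of the gene was dimmer, and the mean of both gave 0.32. PM-L replicates 3 and 4, both with a Gapdh ratio above 3, were also the rats of the highest Col1a1 in the study, with signals of 3428 and 3340.4 against 1649 to 2192 with saline. The log2 fold change of Col1a1 with PM-L was 0.48 (SE 0.26) and did not pass.

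Zinc sulfate differed from saline in 4 matrix genes, against 3.94% of all probe sets in either direction, 1.80% lower and 2.14% higher. Fbn1, Col8a2, and Adam7 were lower and Spp1 was higher. Fibrillin-1 (Fbn1) builds the microfibrils of elastic fibers, and its signals were 505, 659, 1196, and 648 with zinc sulfate against 977, 1027, 1168, and 1252 with saline. Zinc sulfate replicate 3 lay inside the saline range and the other 3 far below it. On the log2 scale the fold change was -0.57 (SE 0.26, adjusted p = 0.999; exact permutation p = 0.114, two-sided). It missed the thresholds without saline replicate 2 (-0.60), 3 (-0.54), or 4 (-0.49) and without zinc sulfate replicate 1 (-0.41), 2 (-0.53), or 4 (-0.53), and the mean of its pair of probe sets gave -0.41. With the log2 Gapdh ratio as a covariate it was -0.52 (SE 0.13).

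Spp1 encodes osteopontin, a phosphoprotein that macrophages and injured heart cells secrete. Its signals were 244.2, 392.5, 373.0, and 328.4 with zinc sulfate and 59.6, 105.8, 243.7, and 280.3 with saline. The groups did not overlap after normalization, although they overlapped in the signals before it. The log2 fold change was 1.14 (SE 0.44, adjusted p = 0.999; exact permutation p = 0.0286, two-sided, the smallest that 4 against 4 rats allow). Without saline replicate 1 it was 0.82 and outside the thresholds. PM-HD and PM-LD hearts had Spp1 signals of 265 ± 72.4 and 253 ± 32.3, log2 fold changes of 0.72 and 0.73 (SE 0.44 each) that did not pass. Among 9 measured markers of macrophages and leukocytes, none was higher and 1, C1qa, was lower with zinc sulfate, with a median of -0.13.

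Col8a2 was lower with zinc sulfate as well as with PM-HD, and both comparisons share the saline rats. The signals were 49.7, 63.5, 58.4, and 74.4 with zinc sulfate, all below the saline signals given above, although the groups overlapped after normalization. Its log2 fold change was -0.58 (SE 0.22, adjusted p = 0.999; exact permutation p = 0.0571, two-sided), it passed without any 1 of the 8 arrays, and a pseudocount of 64 reduced it to -0.39, outside the thresholds. Adam7, a protease-like gene known from the epididymis, had dim signals of 105.0, 75.1, 12.6, and 36.3 against 74.7, 173.7, 238.5, and 154.3, which overlapped. It had a log2 fold change of -1.26 (SE 0.41, adjusted p = 0.999).

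Below the thresholds, zinc sulfate was lower than saline in most matrix genes. All 8 genes of elastic fibers and cross-linking and all 5 proteoglycans had a log2 fold change below 0, with medians of -0.28 and -0.34, and 55 of the 77 genes were below 0 with a median of -0.14. The median of all probe sets was -0.01. Ccn2 had signals of 1622, 1368, 1524, and 1450.4 with zinc sulfate, each below all 4 saline signals. Its log2 fold change of -0.39 (SE 0.18, adjusted p = 0.999; exact permutation p = 0.0286, two-sided) had an unadjusted p of 0.0423 but a fold of 0.766, inside the fold limit. Fbln1, a fibulin of the fiber surface, and Col4a5 also had no zinc sulfate rat within the saline range after normalization, at -0.42 (SE 0.24) and -0.40 (SE 0.23), and neither passed. In the other comparisons with saline the groups also did not overlap for Adam1a, higher on average with MSH (0.24) and PM-L (0.26), and Col4a4, lower on average with PM-HD (-0.76), none past the thresholds. These 4 genes were named after their values were seen. With zinc sulfate, groups did not overlap after normalization for 4 of the 77 genes, where 2.72% of all probe sets did not overlap in either direction. With MSH, PM-HD, and PM-L that was 1 gene each, against 3.13%, 2.10%, and 2.37% of all probe sets, and with PM-LD none, against 2.29%.

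**Figure D2:**
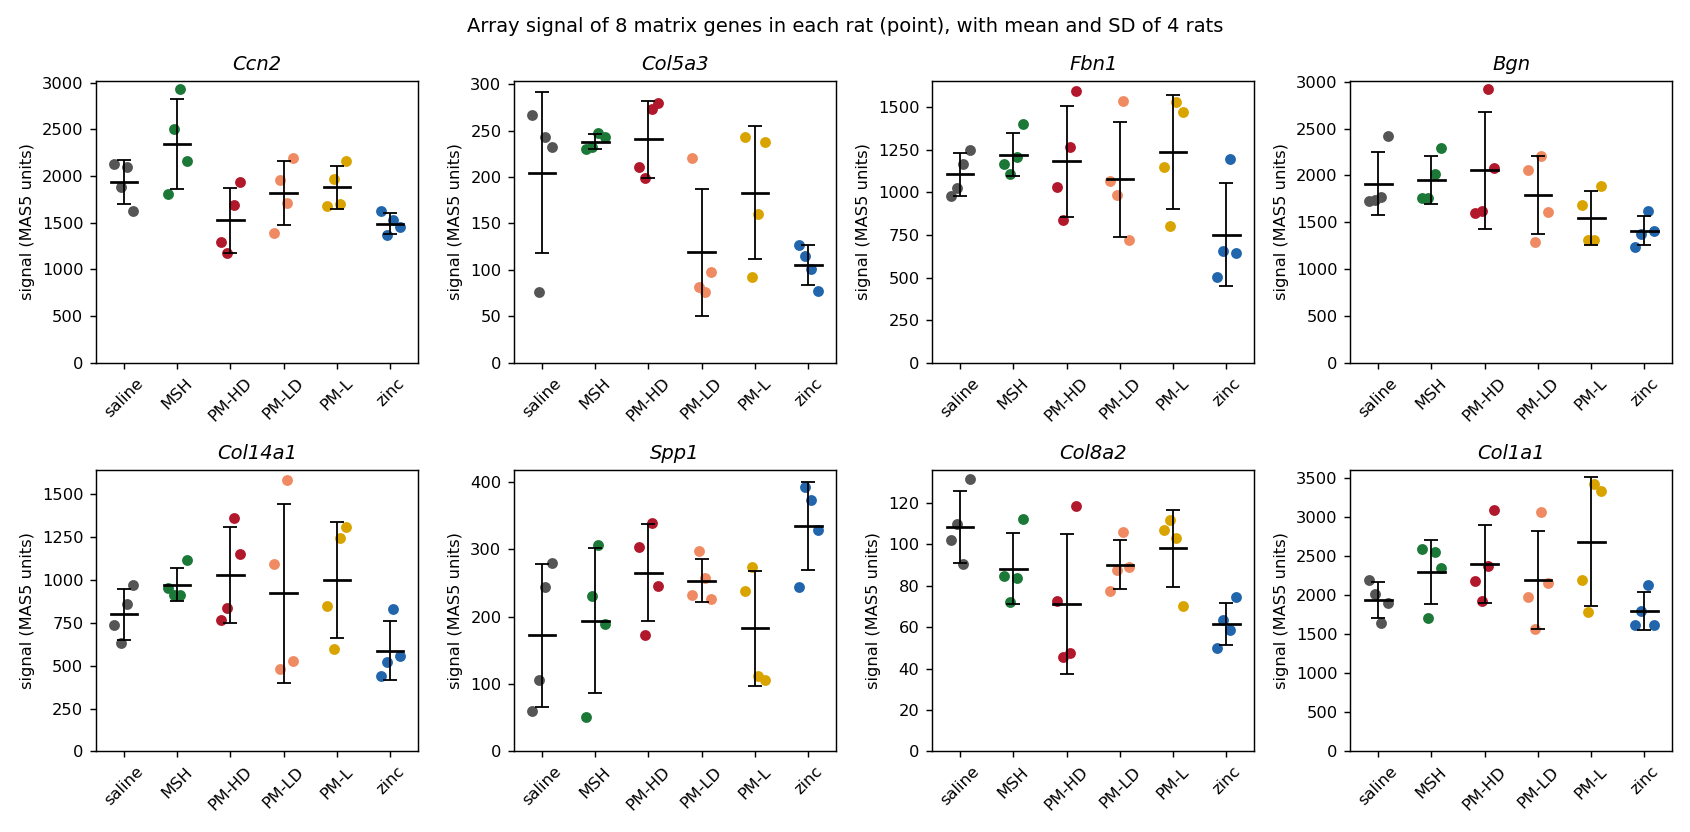
Signal (y, Microarray Suite 5.0 units, from 0) of 8 matrix genes in each rat (points) of the 6 groups (x), with the mean and SD of 4 rats. Zinc sulfate rats were between 1368 and 1622 for Ccn2, where MSH rats were between 1803 and 2929, and zinc sulfate replicate 3 stood above its group for Fbn1 and Col14a1.

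Set against MSH, particles without soluble zinc, zinc sulfate gave the most calls among matrix genes: 8, or 10.4% of the 77, where 5.89% of all probe sets passed. Ccn2, Col5a3, Col14a1, Fbn1, and Bgn were lower (2.75% of all probe sets) and Spp1, Adam18, and Adam19 were higher (3.14%). Of the 77 genes, 54 lay above saline with MSH and 55 below saline with zinc sulfate. The adjusted p of the 8 genes ran from 0.507 to 0.785. The normalized values of the groups did not overlap for 5 of the 77 genes, where 5.16% of all probe sets did not overlap.

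Ccn2, the connective tissue growth factor that acts with TGF-β on fibroblasts, was lowest in p. MSH hearts had signals of 1803, 2498, 2929, and 2156, all above the 4 zinc sulfate signals. On the log2 scale the fold change was -0.67 (SE 0.18, 95% confidence interval -1.04 to -0.30, adjusted p = 0.507; exact permutation p = 0.0286, two-sided). It passed without any 1 of the 8 arrays and under every other alternative that was run, with values from -0.91 to -0.47. It stayed at -0.65 with the Gapdh ratio as a covariate. Over the 6 groups, mean Ccn2 was ordered MSH (2346 ± 481), then control (1936 ± 231), PM-L (1878 ± 230), PM-LD (1816 ± 345), PM-HD (1524 ± 349), and zinc sulfate (1491 ± 108), and each step in that order was smaller than the larger SD of the 2 groups beside it.

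Col5a3, a minor chain of the fibrillar collagen V, had signals of 126.9, 115.3, 100.5, and 77.1 with zinc sulfate and 230.2, 232.2, 247.3, and 242.7 with MSH. No zinc sulfate rat came near the MSH range. The log2 fold change was -0.91 (SE 0.33, 95% confidence interval -1.59 to -0.24, adjusted p = 0.674; exact permutation p = 0.0286, two-sided). PM-LD hearts had a similar low signal in 3 of 4 rats, 81.5, 76.7, and 97.6 with the fourth at 220.8. In saline hearts 1 rat, at 76.4, was as low. The other chains of collagen V, Col5a1 and Col5a2, are bright and did not pass in this comparison. In the fits that left out 1 array, Col5a3 passed each time. Without the 9 arrays of a Gapdh ratio above 3, which leaves 3 zinc sulfate and 2 MSH arrays, Col5a3 was at -0.88 and did not pass.

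Col14a1 encodes collagen XIV, which sits on collagen fibrils, and Bgn encodes biglycan, a small proteoglycan that binds collagen and TGF-β. Col14a1 had signals of 438.9, 523.4, 831.4, and 557.0 with zinc sulfate and 950.9, 910.4, 910.4, and 1116 with MSH. Bgn had 1239.6, 1375, 1619, and 1405 with zinc sulfate and 1755.8, 1755.2, 2015.9, and 2288 with MSH. In both genes every zinc sulfate rat lay below every MSH rat, and zinc sulfate replicate 3, with the high Gapdh ratio, was the highest of its group. The log2 fold changes were -0.69 (SE 0.31, adjusted p = 0.754) for Col14a1 and -0.50 (SE 0.22, adjusted p = 0.754) for Bgn, each with an exact permutation p of 0.0286, two-sided. Col14a1 missed the thresholds without MSH replicate 1 (-0.70) or 4 (-0.63) or zinc sulfate replicate 1 (-0.58), 2 (-0.66), or 4 (-0.69), and Bgn without MSH replicate 3 (-0.48) or 4 (-0.42) or zinc sulfate replicate 1 (-0.43), 2 (-0.48), or 4 (-0.49). The second probe set of Col14a1 gave -0.19 (SE 0.19).

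Fbn1 had signals of 1164, 1110.3, 1208, and 1400.2 with MSH, and zinc sulfate replicate 3, at 1196, again lay among them. Its log2 fold change was -0.72 (SE 0.26, adjusted p = 0.676; exact permutation p = 0.114, two-sided). Without zinc sulfate replicate 1 it was -0.56 and missed the thresholds. With the Gapdh ratio as a covariate it was -0.57 (SE 0.13, adjusted p = 0.156).

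The genes that were higher with zinc sulfate than with MSH were dim or depended on single arrays. Spp1 had MSH signals of 51.2, 230.4, 306.5, and 188.6, of which 1 lay within the zinc sulfate range and 3 below it. The log2 fold change of 1.08 (SE 0.44, adjusted p = 0.726) was 0.56 without MSH replicate 1 and 0.98 without zinc sulfate replicate 2, both outside the thresholds. Adam18, a testis gene, had dim signals of 97.5, 194.3, 97.3, and 135.8 against 42.0, 40.4, 87.1, and 70.6, which did not overlap. It had a log2 fold change of 1.12 (SE 0.54, adjusted p = 0.785; exact permutation p = 0.0286, two-sided), and it missed the thresholds without MSH replicate 1 (0.97), 2 (1.01), or 4 (1.21) or zinc sulfate replicate 1 (1.22), 2 (0.92), or 4 (1.06). Adam19, a membrane protease of the developing heart, had 889.9, 1142, 1008, and 1268 with zinc sulfate and 730.2, 973.4, 781.3, and 720.8 with MSH. Its log2 fold change was 0.42 (SE 0.16, adjusted p = 0.693), it was 0.37 without MSH replicate 4 and 0.35 without zinc sulfate replicate 4, outside the thresholds, and the mean with its dim second probe set was -0.05.

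**Figure D3:**
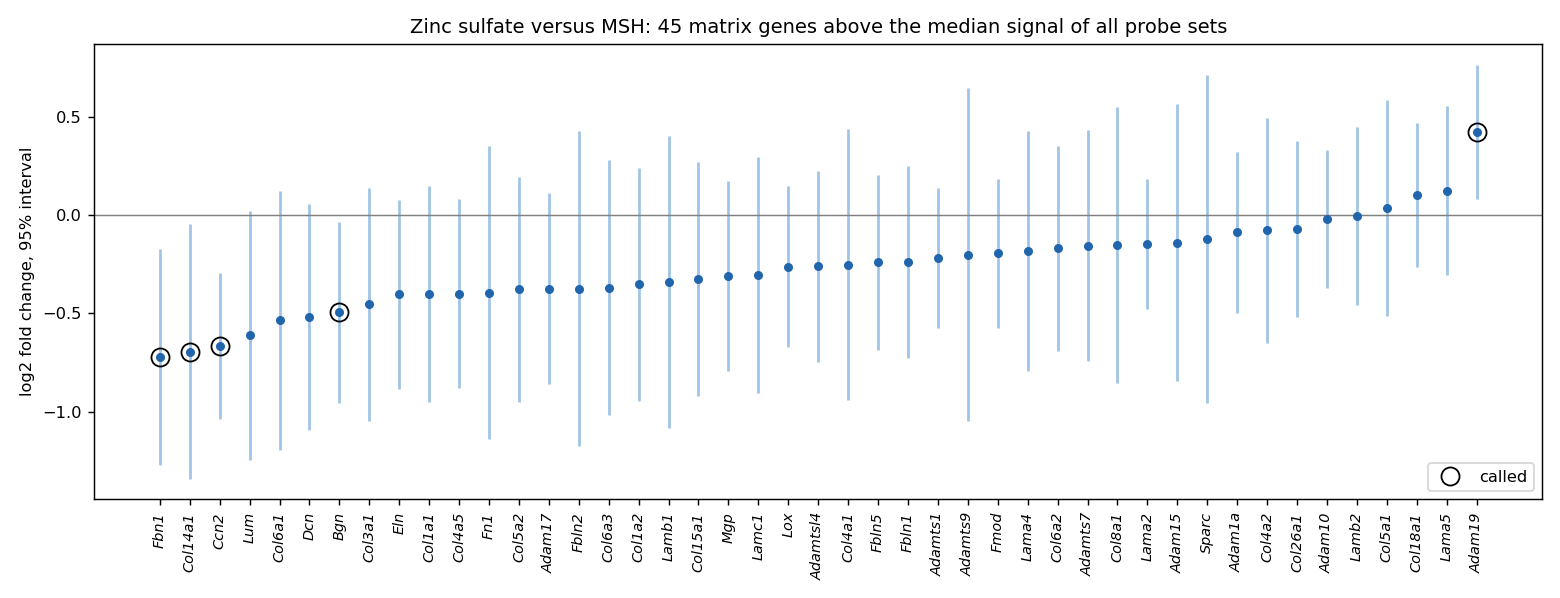
Log2 fold change of zinc sulfate versus MSH (y) with its 95% confidence interval (bars) for the 45 bright matrix genes (x), with genes past the thresholds circled. Of the 45 genes, 41 lay below 0 and the median was -0.26, and Ccn2 had the interval -1.04 to -0.30.

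By role, all 8 genes of elastic fibers and cross-linking (median -0.36), all 5 proteoglycans (-0.50), all 4 ADAMTS genes (-0.21), and all 4 collagen IV chains (-0.19) had a log2 fold change below 0 between zinc sulfate and MSH, as did 7 of 10 fibrillar collagens (-0.34). In all, 63 of 77 were below 0 with a median of -0.24, where the median of all probe sets was -0.01. Most did not pass, among them Lum (-0.61, SE 0.31) and Dcn (-0.52, SE 0.28), small proteoglycans of collagen fibrils, and Col3a1 (-0.45, SE 0.28), Col1a1 (-0.40, SE 0.26), and Eln (-0.40, SE 0.23). Fibroblast markers had a median of -0.41 over 9 measured of 10, and Thy1 was lower, at -0.65; the medians were -0.24 for 6 endothelial and -0.09 for 9 cardiomyocyte markers. They were -0.48 for 5 measured atrial markers, none of which passed, and -0.21 for 6 smooth muscle markers, of which Acta2 was lower (-0.53) and Smtn higher (0.34). The summed signal of the 9 fibroblast markers ran from 21487 to 44733 with zinc sulfate, from 31402 to 37227 with MSH, and from 23002 to 37999 with saline, and zinc sulfate replicate 3 held the top of its range; the part of these cell types in the matrix values was not tested. Without zinc sulfate replicate 3, 12 matrix genes passed between zinc sulfate and MSH and 7 between zinc sulfate and saline, where 10.7% and 5.66% of all probe sets did. Without zinc sulfate replicate 2, 4 passed between zinc sulfate and MSH, where 4.87% of all probe sets did.

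Over all 6 groups, 3 matrix genes had an unadjusted F-test p under 0.05, where 5.01% of all probe sets did. They were Ccn2 (adjusted p = 0.881), Col5a3 (adjusted p = 0.905), and Col11a2 (adjusted p = 0.980), from limma's moderated F-test.

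Bright matrix genes varied together from rat to rat within the groups, and with the Gapdh ratio. With group means removed, Col1a1 correlated with Col3a1 at Pearson r = 0.911 (Spearman rho 0.830) and with Col1a2 at r = 0.863 (rho 0.769) over 24 rats. Col4a1 correlated with Col4a2 at r = 0.967 (rho 0.960). The r without the 2 rats farthest from the median were 0.896, 0.837, and 0.956. Each permutation p was at most 2e-05 and each adjusted p at most 2.93e-05, over 22 coefficients of 11 pairs; the smallest p that the resamples can give is 1e-05. Within the single groups of 4 rats the r of Col4a1 with Col4a2 was above 0 in 5 of 6. Its r with Col4a2 was not particular to that pair: it was 0.978 with Sparc, 0.965 with Adam15, and 0.946 with Col15a1. These other pairs were not tested.

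The Gapdh ratio itself correlated with Col4a1 at r = 0.946 (rho 0.937), with Sparc, a collagen-binding glycoprotein of bone and heart, at r = 0.944 (rho 0.956), and with Col1a1 at r = 0.778 (rho 0.727), all with an adjusted permutation p of 0.000137 or less. Without the 2 rats farthest from the median these r were 0.926, 0.941, and 0.735. For Ccn2 the r was 0.124 (rho 0.126, adjusted permutation p = 0.560), and 0.123 without those rats. The pairs of the ratio with Sparc, Col4a1, and Ccn2 were added after the data were seen. Of the 45 bright matrix genes, 27 (60%) had r above 0.7 with the Gapdh ratio, and of all 7933 bright probe sets 20.3% had r above 0.7 and 20.6% below -0.7. By role these were 5 of 5 fibrillar collagens, 5 of 6 laminins, and 1 of 4 proteoglycans, and 0 of 32 dim matrix genes.

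**Figure D4:**
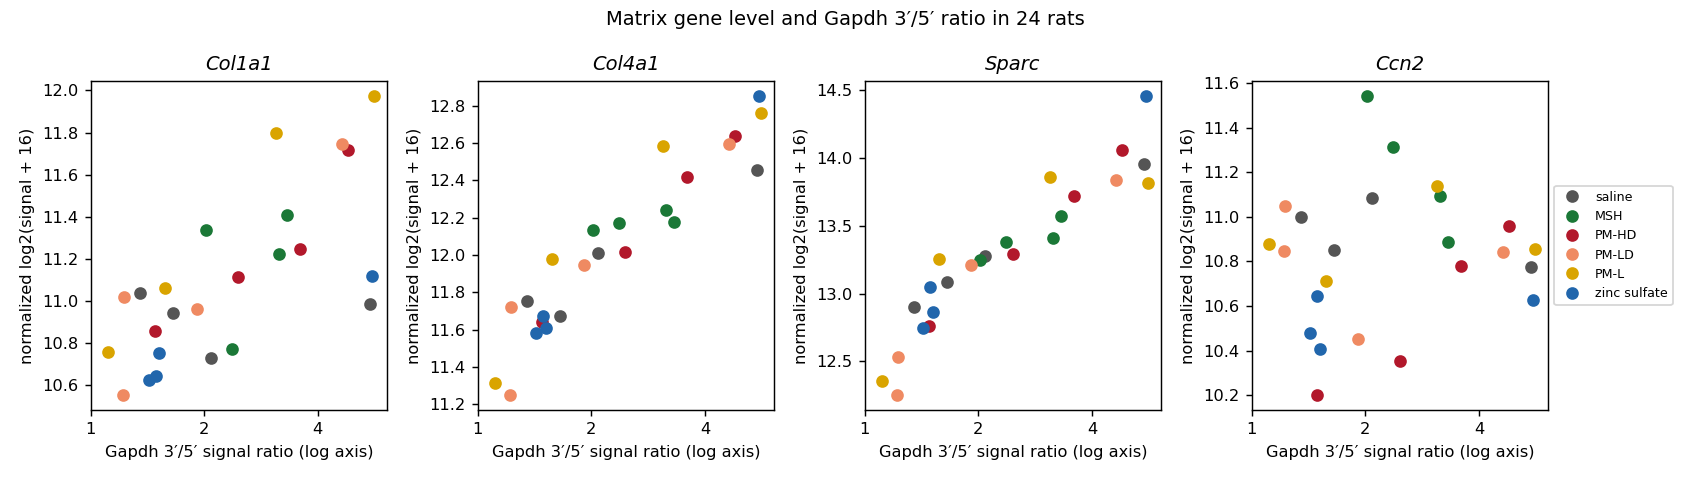
Normalized log2 value (y) of Col1a1, Col4a1, Sparc, and Ccn2 against the Gapdh 3′ to 5′ ratio (x, log axis) in 24 rats, colored by group. The first 3 genes rise along the axis, with r of 0.778, 0.946, and 0.944 after group means were removed, and Ccn2 does not, with r of 0.124.

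With the Gapdh ratio removed, r fell to 0.763 for Col4a1 with Col4a2, 0.771 for Col1a1 with Col3a1, 0.784 for Dcn with Lum (0.842 before, rho 0.810, adjusted permutation p = 2.93e-05 or less), 0.219 for Col1a1 with Sparc (0.780 before, rho 0.726, adjusted permutation p = 0.000233 or less), and -0.03 for Col3a1 with Fn1, the fibronectin gene (0.635 before, rho 0.770, adjusted permutation p = 0.00115 or less). The median r over the 990 pairs of bright matrix genes went from 0.543 to 0.160, and the share of these pairs above 0.5 from 53.6% to 12.4%. Over all pairs of bright probe sets, without removal of the ratio, the median was 0.000194 and 15.5% were above 0.5. Their values after removal are not given here. Postn, the periostin gene of activated fibroblasts, was dim and correlated with Col1a1 at r = 0.469 (adjusted permutation p = 0.0238) and rho = 0.383 (adjusted permutation p = 0.0723). Without the 2 rats farthest from the median, r was 0.788 for Dcn with Lum, 0.761 for Col1a1 with Sparc, 0.560 for Col3a1 with Fn1, and 0.446 for Col1a1 with Postn.

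**Figure D5:**
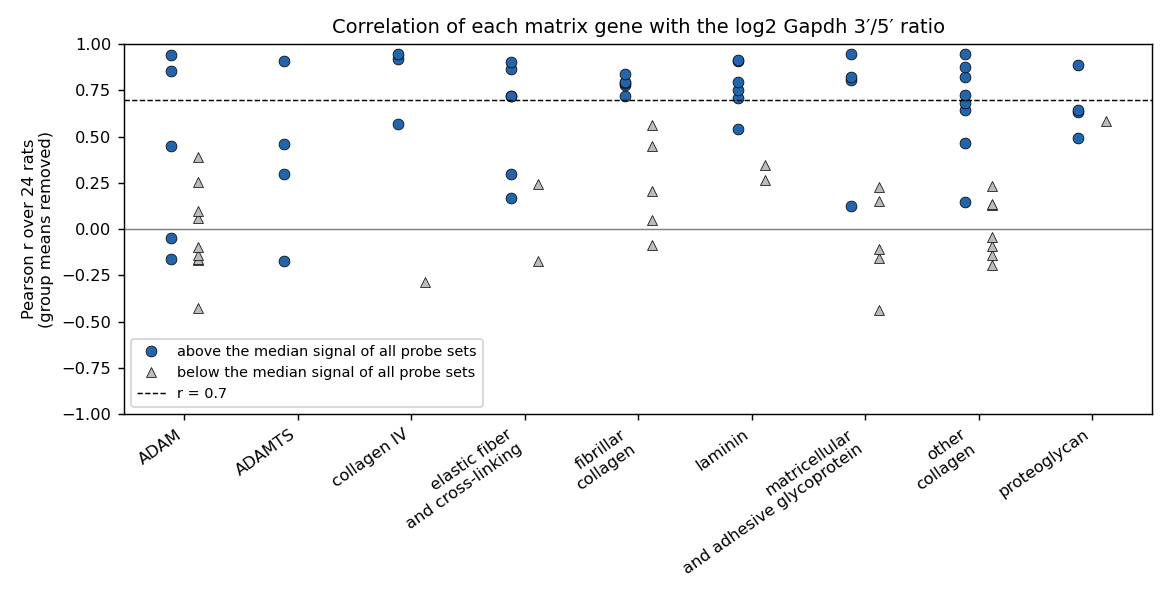
Pearson r with the Gapdh ratio over 24 rats, group means removed (y), of each matrix gene by role (x), as circles for the 45 bright genes and triangles for the 32 dim ones, with a dashed line at 0.7. All 5 bright fibrillar collagens lay above the line and none of the dim genes did.

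The group medians of that ratio were 2.76 for MSH, 3.03 for PM-HD, 2.33 for PM-L, 1.87 for saline, 1.57 for PM-LD, and 1.50 for zinc sulfate. With the ratio as a covariate, the median log2 fold change of the 45 bright matrix genes went from -0.26 to -0.15 for zinc sulfate versus MSH and from -0.14 to -0.09 for zinc sulfate versus saline, with 37 and 33 of 45 below 0. For MSH and PM-HD versus saline it went from 0.11 to 0.03 and from 0.12 to 0.02. For PM-L versus saline it changed little, from 0.12 to 0.11 with 29 of 45 above 0, and for PM-LD it went from -0.09 to -0.003. Without the 9 arrays of a ratio above 3, 13 matrix genes passed between zinc sulfate and MSH, where 11.2% of all probe sets did.

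Other genes of the matrix pathway had few calls against saline, where the shares of all probe sets given above ran from 3.18% to 4.25%. Among 17 measured genes of collagen processing, only cathepsin K (Ctsk), a collagen-degrading protease, passed, at 1.05 with PM-L. Among 18 genes of TGF-β signaling, Smad4 was lower with MSH (-0.45) and Inhba with PM-HD (-0.98). Among 14 matrix receptors, PM-L had Itga6 (0.45) and Sdc1 (0.51) higher and Itga8 (-1.08) lower, and no other comparison had a call. Among 18 other matrix glycoproteins Nid2 was higher with MSH (0.49) and Aspn lower with zinc sulfate (-0.92), and among 17 matrix metalloproteinases and inhibitors Mmp23 was higher with MSH (0.69), Mmp16 lower with PM-LD (-1.01), Mmp12 higher with PM-L (0.86), and Mmp13 lower with zinc sulfate (-0.87). Between zinc sulfate and MSH, where 2.75% of all probe sets were lower and 3.14% higher, 3 of 17 collagen processing genes were lower, including Pcolce (-0.60), which speeds the cleavage of procollagen, and P4ha1 (-0.45), a prolyl hydroxylase. Of 18 other matrix glycoproteins 4 were lower, including Aspn (-1.38), the small proteoglycan asporin, and Nid2 (-0.62), which links laminin to collagen IV, and of 17 matrix metalloproteinases and inhibitors 2 were lower, Mmp14 (-1.01) and Mmp13 (-0.87). In TGF-β signaling Smad4 was higher (0.50) and Smad7 lower (-0.51). The medians of collagen processing, glycoproteins, and metalloproteinases were -0.19, -0.36, and -0.17, and the lowest adjusted p in these lists was 0.540.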

How the data were processed

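Left ventricular RNA of 24 rats was hybridized to 24 Affymetrix Rat 230A arrays. The authors deposited signal intensities made with MAS5 on a linear scale, with a trimmed mean of 500.1 on every array; their own tests used another normalization that was not used here. The number of arrays limits the precision. The title of saline replicate 1 carries a number out of sequence with the other arrays and a suffix that they lack. The labels do not say why, and nothing else says that rats of a group were handled apart. The 4 atrial transcripts averaged 12.442 on the log2 scale on that array and 7.839 to 8.819 on the other saline arrays. Without that array Tnc with MSH, Col18a1 with PM-L, and Spp1 with zinc sulfate missed the thresholds, as given above. Of 15923 probe sets, 57 control probe sets were left out. Signals were set to log2(signal + 16) and quantile normalized, so fold changes of dim genes are understated, and 1 limma fit (3.58.1, R 4.3.3) covered all 24 arrays; comparisons with saline share its 4 arrays. A call needs an unadjusted p under 0.05 and a fold past the study's limits, 1.25 upward and 0.75 downward, and adjusted p are Benjamini-Hochberg over 15866 probe sets. Exact permutation tests on normalized values used all 70 arrangements, and correlations 100000 resamples (scipy 1.17.1). The limma script was tested on simulated data. Probe sets were named from the platform annotation (12783 with 1 symbol, 312 with several, 2771 with none), and all 77 genes matched RefSeq. The genes named are a fixed set of major matrix genes, up to 5 called genes per direction and comparison, the 5 lowest F-test p, and up to 2 called genes per pathway list; other named genes were chosen after their values were seen. The genes and lists were chosen with earlier results of these data known. The alternatives were other pseudocounts, centering, a filter on dim probe sets, another prior, probe set averaging, other fold limits, covariates, a replicate block, smaller fits, and leaving out arrays.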

Additional observations from a re-analysis of the deposited data

Results flagged for a closer look

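In groups of 4 rats, 1 rat stood apart from the other 3 by more than Dixon's limit in 4 of 162 groups looked at (27 named genes in 6 groups), where chance gives about 1 in 20. Zinc sulfate replicate 3 was the highest of its group for Col4a1 (signal 6737, gap over range 0.927) and Col4a2 (signal 6091, gap over range 0.895), and it had a Gapdh ratio of 5.575. Saline replicate 3 was the lowest of its group for Col11a2 (signal 22.5, gap over range 0.921), and PM-HD replicate 2 was the highest for Adam18 (signal 99.5, gap over range 0.829).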

How the results depend on the processing

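With MSH the count of matrix genes past the thresholds, 1, became 2 with a pseudocount of 64, symmetric fold limits, or a fit of only the 2 groups, 0 with the filter on dim probe sets, and 3 without arrays of a Gapdh ratio above 3 or of an atrial mean above 11. With PM-HD the count of 1 became 0 with a pseudocount of 64, the dim filter, or without the atrial arrays; 2 with a pseudocount of 1, averaged probe sets, either covariate, or symmetric limits; 3 in a fit of 2 groups; and 4 without the high Gapdh arrays. With PM-LD the count of 1 became 0 with the dim filter, 2 with averaged probe sets, a fit of 2 groups, or without the atrial arrays, and 3 without the high Gapdh arrays. With PM-L the count of 1 became 2 with median centering, a fit of 2 groups, or without the high Gapdh arrays, and 3 with the Gapdh covariate. Zinc sulfate versus saline went from 4 to 2 with the dim filter and 7 without the high Gapdh arrays, and zinc sulfate versus MSH from 8 to 13 in the fit of 16 arrays or without the high Gapdh arrays and 4 without the atrial arrays. The F-test count of 3 became 6 without the high Gapdh arrays. The last array choices were added after seeing the data, and the cause of these changes was not tested. Leaving out 1 array gave 0 to 3 with MSH, 1 to 4 with PM-HD (4 without PM-HD replicate 2), 1 to 4 with PM-LD (4 without PM-LD replicate 3), 0 to 5 with PM-L (5 without PM-L replicate 2), 3 to 7 for zinc sulfate versus saline, 4 to 12 for zinc sulfate versus MSH, and 2 to 7 for the F-test (7 without PM-L replicate 2). Between zinc sulfate and MSH the log2 fold change of Adam19 turned to -0.054 with averaged probe sets. The counts in this paragraph stand without the share of all probe sets. That share also moved, as given above without the high Gapdh arrays and without zinc sulfate replicate 3. A changed count was therefore not read as a change in matrix genes.

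With the replicate block the counts, with the share of all probe sets, were 3 for PM-HD (3.71%), 2 for PM-LD (4.59%), 2 for PM-L (4.53%), 7 for zinc sulfate versus saline (4.42%), and 12 for zinc sulfate versus MSH (6.81%). Rats of the same replicate number had a median r of 0.058 (-0.275 to 0.532, 60 pairs) and others -0.017 (-0.512 to 0.410, 180 pairs). These ranges overlap widely and do not settle whether the replicate numbers pair the rats.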
